A study of Mus musculus with 9 samples.

Results

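The RNA of 10 mouse genes known as factors of the primitive and definitive endoderm was measured in 9 libraries of cultured stem cells: Sox17, Sox7, Gata4, Gata6, Pdgfra, Dab2, Hnf4a, Foxa1, Amn and Cubn. They were taken by gene name from a gene count table of 54878 entries, and each name matched 1 entry. The libraries came from 3 cell types, ABSC, ALSC and AFSC, with 3 libraries each. All 3 share the strain Sv129 x GOF/GFP F1. AFSC, described by the labels as cells resembling epiblast stem cells, came from blastocysts. They were grown on fibronectin in N2 and B27 medium with Activin A and bFGF, and were at passage 15 to 20. ABSC, described as resembling trophoblast stem cells, were AFSC moved for over 5 passages to Activin A and BMP4, and were at passage 25 to 30. ALSC, labelled as a stem cell derived from AFSC, were AFSC moved for over 5 passages to Activin A and leukaemia inhibitory factor (LIF), and were at passage 20 to 25. The protocol prints that LIF recipe under the name of the ABSC medium, so its assignment to ALSC is a reading of the text. Passage, medium and cell type cannot be told apart in this design, and the labels do not say how many lines or embryos the cultures came from. The comparisons ask what each medium goes with relative to AFSC, and how the BMP4 and LIF cultures differ.

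The primitive endoderm is the extraembryonic layer that forms beside the epiblast in the blastocyst and later gives the visceral and parietal endoderm of the yolk sac. The definitive endoderm, which lines the gut, arises later from the epiblast through the primitive streak. Both layers use GATA, SOX and forkhead transcription factors, so a factor such as Sox17 does not by itself tell one layer from the other. GATA6 sets the primitive endoderm fate, GATA4, SOX17 and SOX7 act after it, and the receptor PDGFRA marks its precursors. Amnionless, cubilin and the adaptor DAB2 belong to the machinery by which the visceral endoderm takes up nutrients from the outside. Activin A acts on the pathway that Nodal uses in the embryo to induce definitive endoderm, and BMP4 acts in the posterior and extraembryonic parts of the embryo.

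The smallest library held 19020419 counts (ALSC 2) and the largest 21627656 (AFSC 3). Levels are given as CPM, counts scaled to library size by edgeR's TMM method, and 3 reads in 1 library correspond to 0.138 to 0.157 CPM, a limit that covers counting error only. The libraries numbered 1 stood apart from those numbered 2 and 3 in all 3 cell types. AFSC 1 was the highest of its group for 6 of the 8 genes that could be tested, ALSC 1 the highest for 6, and ABSC 1 the lowest for 5. Results on the endoderm genes are therefore also given without the libraries numbered 1 where that changes a call or a direction. Of the marker lists, 8 epiblast genes summed to 3933 to 4135 CPM in ABSC, 4141 to 4319 CPM in ALSC and 4220 to 4365 CPM in AFSC, and in ABSC against AFSC 3 of them were called higher and 5 lower by edgeR, among them Fgf5 (16.3 CPM in ABSC and 189 CPM in AFSC). The 9 trophoblast stem cell markers summed to 604 to 734 CPM in ABSC, 289 to 404 CPM in ALSC and 353 to 424 CPM in AFSC. Hand1, which is also on the mesoderm list, averaged 213 CPM in ABSC, 2.08 CPM in ALSC and 0.240 CPM in AFSC. Tfap2c averaged 8.64, 18.7 and 3.79 CPM, and Eomes 117, 127 and 122 CPM, in the same order. Cdx2 averaged 4.45 CPM in ABSC, 0.0858 CPM in ALSC and 0.126 CPM in AFSC, while Elf5 and Gata3 were below 1 CPM in every group mean. The 8 endothelial markers, among them Sox18, a relative of Sox17 and Sox7, summed to 24.1 to 24.5 CPM in ABSC, 25.7 to 29.8 CPM in ALSC and 25.6 to 28.9 CPM in AFSC. Of these 8 markers, 4 averaged at least 1 CPM in each group, Egfl7 being the highest at 16.4, 20.3 and 18.0 CPM in ABSC, ALSC and AFSC. The lowest, Emcn, had 0 counts in ABSC and ALSC and 1 count in AFSC. The 8 mesoderm markers summed to 214 to 255 CPM in ABSC, 6.01 to 7.53 CPM in ALSC and 4.69 to 5.53 CPM in AFSC. Hand1 made up most of that ABSC sum, whose mean was 234 CPM. Of 6 tested mesoderm markers, edgeR called 3 higher in ABSC than in AFSC and 1, Twist1, lower (-1.73). Over all tested genes 3.98% were called higher and 4.0% lower. The part of these markers in the results below was not tested.

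All 10 endoderm genes were at low levels. Summed over the 10 genes, ABSC libraries held 8.84, 9.88 and 7.54 CPM, ALSC libraries 25.1, 20.7 and 18.4 CPM, and AFSC libraries 21.5, 16.5 and 16.7 CPM. The 3 ABSC sums were below all 6 others. Bulk RNA does not show whether few cells with much of an RNA or many cells with little of it lie behind such a level, and fewer cells of a type cannot be told apart from less RNA per cell. The mean CPM of ABSC was below that of ALSC and of AFSC for 9 of the 10 genes, Sox7 being the exception. Of the 10 genes, 8 passed the filter on low counts and entered the test, while Sox7 and Hnf4a did not. Gata4, Sox17 and Foxa1 passed it only through ALSC or AFSC libraries, so a low level in ABSC was part of how they entered. Gata6 and Cubn reached the filter level in 1 ABSC library each and Pdgfra in 2, so these too needed ALSC or AFSC libraries to enter. Only Dab2 and Amn reached it in all 3 ABSC libraries. Counts of genes lower in ABSC are therefore given below as description.

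**Figure D1:**
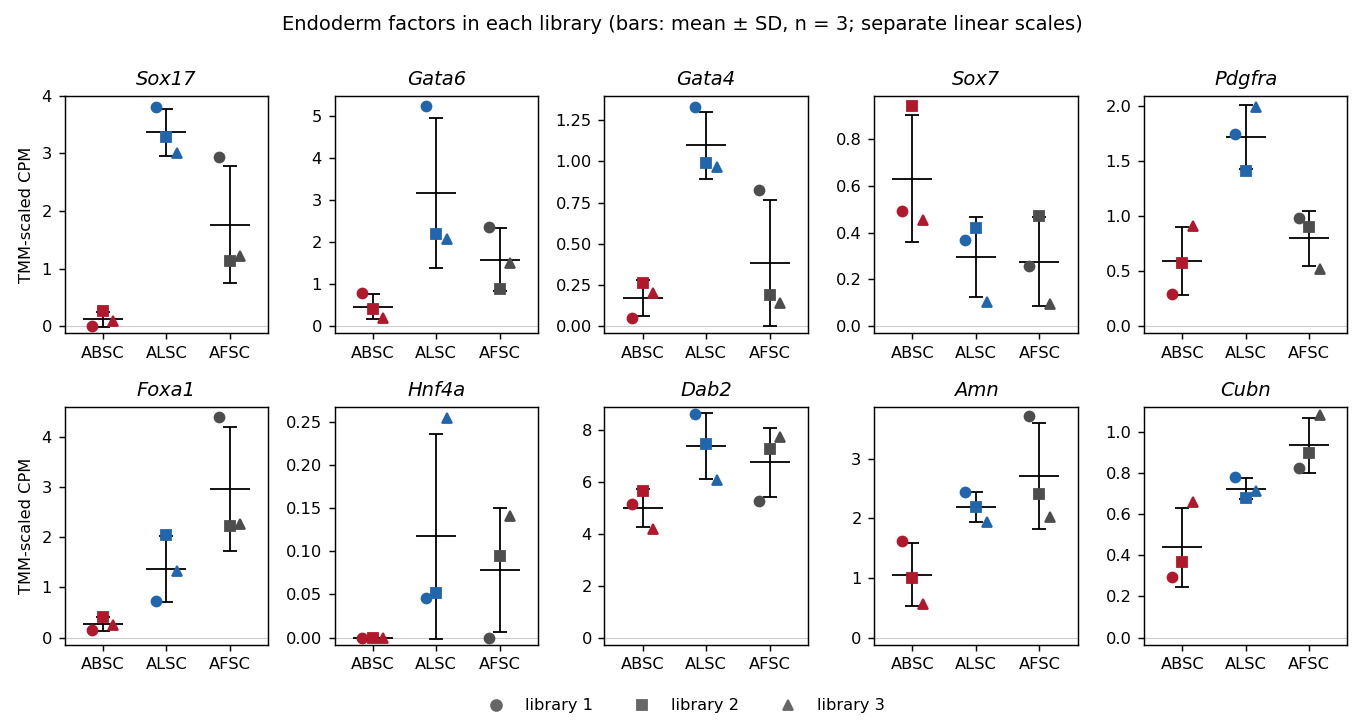
Level of each of the 10 genes in every library. Each panel plots TMM-scaled CPM on its own linear axis from 0 for ABSC, ALSC and AFSC, symbols give the library number, and bars show mean ± SD (n = 3). The 3 ABSC libraries lie at or below 0.261 CPM for Sox17, against 3.01 to 3.81 CPM in ALSC and 1.13 to 2.94 CPM in AFSC.

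ABSC had less Sox17 and less Foxa1 than AFSC. Sox17 was 14.1-fold lower and Foxa1 10.6-fold lower, and these were the 2 of 8 tested genes called in this comparison, both lower in ABSC. A gene is called where the edgeR quasi-likelihood test gave a p below 0.05 after Benjamini-Hochberg adjustment over all 16178 genes tested. The background is 4.0% of all tested genes called lower in ABSC, 3.98% called higher and 7.98% called in either direction. With the replicate number as a block, 4 of the 8 were called lower, Gata6 and Amn being added, and 0 higher, against backgrounds of 9.78%, 9.58% and 19.4% for lower, higher and either. All 8 log2 fold changes were below 0, as were 50.9% of those of all genes, and 5 of the 8 had an unadjusted p under 0.05, against 20.3%. Without the libraries numbered 1, 5 were called lower, Gata6, Amn and Dab2 being added, against 2262 of 16224 genes called lower and 2360 higher. The libraries did not overlap, with ABSC below, for 5 of the 8 genes, against 13.5% of all tested genes. The median log2 fold change was -1.24 over the 8 genes and -0.00 over all genes tested.

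ABSC differed from ALSC in more of these genes. Sox17, Gata6, Gata4, Foxa1 and Pdgfra were lower in ABSC, 27.1-fold, 6.69-fold, 6.31-fold, 4.92-fold and 2.88-fold in that order. These were 5 of 8 tested genes, and 0 were higher, against 5.56% of all genes called lower, 5.41% called higher and 11.0% called in either direction (edgeR). With library size as the only scaling, 615 genes were called higher and 1135 lower over the whole table, in place of 875 and 900, and the 5 calls and their directions stayed. All 8 tested genes had the ABSC libraries below the ALSC libraries without overlap, a pattern seen in 15.1% of tested genes. For Cubn this came only from scaling, as ABSC 3 and ALSC 2 both held 13 reads. All 8 log2 fold changes were below 0, against 51.5% of all genes, and 7 had an unadjusted p under 0.05, against 26.0%. With the replicate block 7 of 8 were called lower, Amn and Dab2 being added, and 0 higher, against backgrounds of 14.3% lower, 14.2% higher and 28.5% either. Without the libraries numbered 1 the same 7 were called, against 2496 of 16224 genes called lower and 2729 higher. The median log2 fold change was -1.91 over the 8 genes and -0.01 over all genes.

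ALSC differed less clearly from AFSC. No tested endoderm gene was called, by edgeR or by DESeq2, against a background of 7.04% of tested genes called by edgeR, 3.54% higher and 3.50% lower. At an unadjusted p under 0.05, 2 of 8 were higher, Gata4 and Pdgfra, and 1 was lower, Foxa1, where 21.5% of all genes passed. Of the 8 log2 fold changes 3 were below 0, against 49.6% of all genes. With the replicate block Gata4, Gata6 and Pdgfra were called higher in ALSC and 0 genes lower, against backgrounds of 11.1% in each direction and 22.2% in either. Without the libraries numbered 1, Sox17, Gata4 and Pdgfra were called higher, against 1953 of 16224 genes called higher and 2169 lower. The ALSC libraries lay above the AFSC libraries without overlap for 3 genes (14.7% of tested genes) and below them for 2 (13.8%). ABSC and ALSC were compared with the same 3 AFSC libraries, so their differences from AFSC share those libraries. A joint edgeR test over the 3 groups passed for 5 of the 8 genes, Sox17, Foxa1, Gata6, Gata4 and Pdgfra, against 14.8% of all genes, and with the replicate block for 6, against 37.0%.

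**Figure D2:**
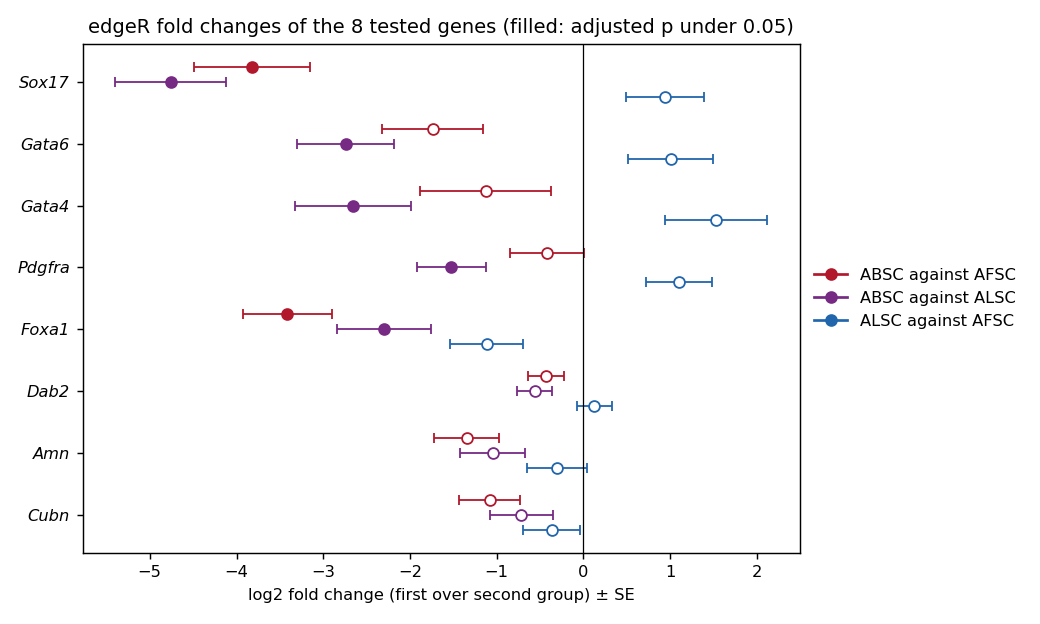
edgeR log2 fold changes of the 8 tested genes, with their SE as bars, for ABSC against AFSC, ABSC against ALSC and ALSC against AFSC. Filled points passed an adjusted p of 0.05. All 16 points of the ABSC comparisons lie left of 0, and the Sox17, Gata6, Gata4 and Pdgfra points of ALSC against AFSC lie right of 0, none of them filled.

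Sox17 encodes an SRY-related transcription factor used by both primitive and definitive endoderm (ENSMUSG00000025902, chromosome 1, 4490931 to 4497354, minus strand, GRCm38). Its ABSC libraries held 0, 5 and 2 reads, or 0, 0.261 and 0.101 CPM. Its ALSC libraries held 3.81, 3.29 and 3.01 CPM, and its AFSC libraries 2.94, 1.13 and 1.22 CPM. The 3 groups did not overlap, with ABSC lowest and ALSC highest. The 0 reads of ABSC 1 allow a level of up to 0.147 CPM. Against AFSC the log2 fold change of ABSC was -3.82 (SE 0.67, edgeR adjusted p = 0.00634), and against ALSC it was -4.76 (SE 0.64, edgeR adjusted p = 0.00135). Both calls stayed in all 17 alternative settings, and the fold changes were -2.66 and -4.07 without the libraries numbered 1. They were -4.97 and -5.91 without ABSC 2, and -3.23 and -4.17 without ABSC 1, the library with 0 reads. Between ALSC and AFSC the mean levels were 3.37 ± 0.410 CPM and 1.76 ± 1.02 CPM (SD, n = 3), a log2 fold change of 0.94 that was not called (edgeR adjusted p = 0.257). AFSC 1 alone was near the ALSC level, and without the libraries numbered 1 the difference was 1.41 and called (edgeR adjusted p = 0.000508).

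Gata6 encodes the zinc-finger factor that acts first in the primitive endoderm (ENSMUSG00000005836, chromosome 18, 11052508 to 11085635, plus strand). It had 16, 8 and 4 reads in ABSC, 114, 42 and 41 reads in ALSC, and 46, 19 and 32 reads in AFSC. All 3 ABSC libraries were below every other library, while ALSC and AFSC overlapped. Library 1 was the highest of its group in each cell type, and within each library number ABSC was lowest and ALSC highest. Mean levels were 0.469 ± 0.295 CPM in ABSC, 3.17 ± 1.79 CPM in ALSC and 1.59 ± 0.740 CPM in AFSC (SD, n = 3). ABSC against ALSC gave a log2 fold change of -2.74 (SE 0.56, edgeR adjusted p = 0.0123), and this call was lost without ABSC 2 (-2.66, edgeR adjusted p = 0.0588) and without ABSC 3 (-2.38, edgeR adjusted p = 0.0530). The fold change was -3.34 without ABSC 1 and -2.16 without ALSC 1, and the call stayed. ABSC against AFSC gave -1.74 (SE 0.58), which missed the threshold (edgeR adjusted p = 0.111) and passed it with the replicate block (-1.78, edgeR adjusted p = 0.00161) and without the libraries numbered 1 (-1.93, edgeR adjusted p = 0.00239). DESeq2 called this difference too (-1.75, adjusted p = 0.0297). ALSC against AFSC gave 1.01 (SE 0.49, edgeR adjusted p = 0.267), and 0.96 with the replicate block (edgeR adjusted p = 0.0156).

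Gata4, a zinc-finger partner of Gata6 in the endoderm and the heart (ENSMUSG00000021944, chromosome 14, 63198922 to 63271692, minus strand), was lower still. Its counts were 1, 5 and 4 reads in ABSC, 29, 19 and 19 reads in ALSC, and 16, 4 and 3 reads in AFSC. The ALSC libraries lay above all others, and AFSC 1 stood apart from AFSC 2 and AFSC 3, which lay within the ABSC range. Scaled to library size, they stood at 0.0491, 0.261 and 0.202 CPM in ABSC, 1.33, 0.992 and 0.968 CPM in ALSC, and 0.824, 0.189 and 0.141 CPM in AFSC. ABSC against ALSC was called (-2.66, SE 0.67, edgeR adjusted p = 0.0314). Leaving out any 1 of the libraries ABSC 1, ABSC 2, ABSC 3, ALSC 1, ALSC 2 or ALSC 3 lost that call, at -3.07 to -2.21 and edgeR adjusted p of 0.0589 to 0.0919. ALSC against AFSC gave 1.53 (SE 0.59, edgeR adjusted p = 0.160), and it was called with the replicate block (1.58, edgeR adjusted p = 0.0375) and without AFSC 1 (2.69, edgeR adjusted p = 0.0283). ABSC against AFSC gave -1.13 (SE 0.76, edgeR adjusted p = 0.487) and had no stable direction, being 0.04 without AFSC 1.

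Sox7, a relative of Sox17 in the primitive endoderm and in endothelium (ENSMUSG00000063060, chromosome 14, 63943673 to 63950732, plus strand), was the 1 gene with its highest mean in ABSC. It had 10, 18 and 9 reads in ABSC, 8, 8 and 2 reads in ALSC, and 5, 10 and 2 reads in AFSC. Scaled levels were 0.491, 0.941 and 0.455 CPM in ABSC, 0.368, 0.418 and 0.102 CPM in ALSC, and 0.258, 0.472 and 0.0940 CPM in AFSC. The ABSC and AFSC libraries overlapped, and the lowest ABSC library was just above the highest ALSC library. It did not pass the filter on low counts. In the fit without that filter, ABSC against AFSC gave a log2 fold change of 1.18 (edgeR adjusted p = 0.425) and ABSC against ALSC 1.07 (edgeR adjusted p = 0.402), so no difference was detectable at this depth.

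Pdgfra encodes the receptor for platelet-derived growth factor that marks primitive endoderm precursors and, later, mesoderm (ENSMUSG00000029231, chromosome 5, 75152292 to 75198215, plus strand). It stood at 0.295, 0.575 and 0.911 CPM in ABSC, 1.75, 1.41 and 1.99 CPM in ALSC, and 0.979, 0.898 and 0.517 CPM in AFSC. ALSC libraries were above all 6 others, and ABSC and AFSC overlapped. ABSC against ALSC was called (-1.52, SE 0.40, edgeR adjusted p = 0.0361). The call was lost when ABSC 1, ABSC 2, ALSC 1, ALSC 2, ALSC 3 or AFSC 2 was left out, at -1.64 to -1.19 and edgeR adjusted p of 0.0600 to 0.124, and in a fit of these 2 groups alone (edgeR adjusted p = 0.0721). ALSC against AFSC gave a 2.15-fold higher level (edgeR adjusted p = 0.121), called with the replicate block (edgeR adjusted p = 0.0446) and without the libraries numbered 1 (1.26, edgeR adjusted p = 0.0165). ABSC against AFSC was -0.42 (SE 0.42, edgeR adjusted p = 0.676) and 0.08 without the libraries numbered 1.

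Of the other genes of this pathway, 6 were listed and 5 tested. The ligand gene Pdgfa was higher in ABSC than in AFSC (1.20, SE 0.24, edgeR adjusted p = 0.0129) and than in ALSC (0.87, SE 0.24, edgeR adjusted p = 0.0435). It averaged 25.1 ± 8.56 CPM in ABSC, 13.7 ± 0.910 CPM in ALSC and 10.9 ± 2.02 CPM in AFSC (SD, n = 3). Leaving out ABSC 2, ABSC 3, AFSC 1 or AFSC 3 lost the Pdgfa call against AFSC (0.98 to 1.20, edgeR adjusted p of 0.0506 to 0.0588). Against ALSC the call was lost without ABSC 2, ABSC 3, ALSC 1, ALSC 2, ALSC 3, AFSC 2 or AFSC 3 (0.65 to 0.93, edgeR adjusted p of 0.0585 to 0.168), with library size as the only scaling (edgeR adjusted p = 0.0546), without the filter on low counts (edgeR adjusted p = 0.0636) and with both groups alone in the fit (edgeR adjusted p = 0.0874). Pdgfc, another ligand, was higher in ABSC than in ALSC (1.22, SE 0.26, edgeR adjusted p = 0.0148), a call lost without ABSC 2 (1.11, edgeR adjusted p = 0.0656) and without ABSC 3 (1.20, edgeR adjusted p = 0.0520). No PDGF gene was called between ALSC and AFSC by the main edgeR fit or DESeq2, with 1 higher and 1 lower at an unadjusted p under 0.05. With the replicate block Pdgfc was called lower in ALSC than in AFSC (edgeR adjusted p = 0.0176). Pdgfb, also a ligand gene, was at 4.94 CPM in ABSC, 3.18 CPM in ALSC and 3.09 CPM in AFSC. The main edgeR fit did not call it in either ABSC comparison. Against ALSC it was called higher in ABSC with the replicate block (edgeR adjusted p = 0.0357) and without ALSC 1. Without the libraries numbered 1 it was called in both ABSC comparisons. Pdgfd was too low to be tested.

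Foxa1 encodes a forkhead pioneer factor of the definitive endoderm and its organs (ENSMUSG00000035451, chromosome 12, 57540628 to 57546916, minus strand). Its levels were 0.147, 0.418 and 0.253 CPM in ABSC, 0.735, 2.04 and 1.32 CPM in ALSC, and 4.38, 2.22 and 2.26 CPM in AFSC. The 3 groups did not overlap, with AFSC highest, an order that differs from the one of Sox17. ABSC against AFSC was called (-3.41, SE 0.52, edgeR adjusted p = 0.00288) in all 17 alternative settings, and was -2.71 without the libraries numbered 1. ABSC against ALSC was called too (-2.30, SE 0.54, edgeR adjusted p = 0.0236). That call was lost without ABSC 1 (-1.99), ABSC 3 (-2.24), ALSC 2 (-1.89) or ALSC 3 (-2.31), at edgeR adjusted p of up to 0.0848, the first of them at the threshold. ALSC against AFSC was -1.11 (SE 0.42) and not called (edgeR adjusted p = 0.153), with the highest AFSC and the lowest ALSC level both in libraries numbered 1.

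Hnf4a, a nuclear receptor of the visceral endoderm and the liver (ENSMUSG00000017950, chromosome 2, 163506808 to 163572910, plus strand), was close to absent from the counts. It had 0 reads in the 3 ABSC libraries, 1, 1 and 5 reads in ALSC, and 0, 2 and 3 reads in AFSC. No comparison can be read from so few reads, and it did not pass the filter on low counts. In the fit without that filter, ABSC was at -3.80 against AFSC (edgeR adjusted p = 0.406) and -4.31 against ALSC (edgeR adjusted p = 0.199), neither of them called.

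Dab2 encodes an adaptor that links cargo receptors to clathrin and is a classic product of GATA6 in the extraembryonic endoderm (ENSMUSG00000022150, chromosome 15, 6299788 to 6440712, plus strand). It had the most reads of the 10 genes, at 5.16, 5.65 and 4.20 CPM in ABSC, 8.64, 7.47 and 6.06 CPM in ALSC, and 5.26, 7.28 and 7.75 CPM in AFSC. The groups lay close together, and only ABSC and ALSC did not overlap. ABSC against ALSC was -0.56 (SE 0.21, edgeR adjusted p = 0.115), called with the replicate block (edgeR adjusted p = 0.0328) and without the libraries numbered 1 (-0.45, edgeR adjusted p = 0.0445). ABSC against AFSC was -0.44 (SE 0.21, edgeR adjusted p = 0.276), and called without the libraries numbered 1 (-0.61, edgeR adjusted p = 0.00671). ALSC against AFSC was 0.13 (SE 0.20, edgeR adjusted p = 0.785).

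Amn encodes amnionless, the membrane anchor of cubilin (ENSMUSG00000021278, chromosome 12, 111271095 to 111276426, plus strand). It stood at 1.62, 0.994 and 0.557 CPM in ABSC, 2.44, 2.19 and 1.94 CPM in ALSC, and 3.71, 2.41 and 2.02 CPM in AFSC. Every ABSC library was below every other library, and ALSC and AFSC overlapped. ABSC against AFSC was -1.35 (SE 0.37) and just missed the threshold (edgeR adjusted p = 0.0546). It passed with the replicate block (-1.37, edgeR adjusted p = 0.00174), without ABSC 1 (-1.79, edgeR adjusted p = 0.0138) and without all libraries numbered 1 (-1.51, edgeR adjusted p = 0.000869). It also passed with DESeq2 (-1.35, adjusted p = 0.0114) and without the filter on low counts (-1.34, edgeR adjusted p = 0.0154). ABSC against ALSC was -1.04 (SE 0.37, edgeR adjusted p = 0.107), and called with the replicate block (edgeR adjusted p = 0.00771), without ABSC 1 (-1.49, edgeR adjusted p = 0.0283) and without all libraries numbered 1 (-1.40, edgeR adjusted p = 0.00204). ALSC against AFSC was -0.30 (SE 0.35, edgeR adjusted p = 0.682).

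Cubn encodes cubilin, the large uptake receptor that binds the complex of intrinsic factor and vitamin B12 (ENSMUSG00000026726, chromosome 2, 13276338 to 13491813, minus strand). It had 6, 7 and 13 reads in ABSC, 17, 13 and 14 reads in ALSC, and 16, 19 and 23 reads in AFSC. Scaled means were 0.440 ± 0.192 CPM, 0.724 ± 0.0521 CPM and 0.934 ± 0.132 CPM in the same order (SD, n = 3), and the groups did not overlap after scaling. By reads they did meet, with 13 in both ABSC 3 and ALSC 2, and 17 in ALSC 1 against 16 in AFSC 1. ABSC against AFSC was -1.08 (SE 0.35, edgeR adjusted p = 0.0995) and was not called in any alternative setting run. Lrp2, which encodes megalin, the receptor that works with cubilin and amnionless, went the other way. It averaged 149 ± 22.6 CPM in ABSC, 54.9 ± 8.21 CPM in ALSC and 72.5 ± 3.91 CPM in AFSC (SD, n = 3), and was higher in ABSC than in AFSC (1.03, SE 0.13, edgeR adjusted p = 0.000935) and than in ALSC (1.44, SE 0.13, edgeR adjusted p = 0.000120). Both Lrp2 calls stayed in all 17 alternative settings. ABSC thus held more Lrp2 and had its lowest means for both Amn and Cubn.

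Promoter sequences are shown for Foxa1, the forkhead gene called in both ABSC comparisons, and for Dab2, the gene of this set known as a GATA6 product, because forkhead and GATA genes were among those called. The windows run from -250 to -11 bases of the RefSeq transcript start (GRCm38.p6). Capitals mark letters that match a GATA motif (AGATAA or TGATAA) or a forkhead motif (TGTTTAC or TATTTAC), on either strand. Such a match is a description of the letters and not a binding site.
Foxa1, chr12:57546122-57546361, minus strand: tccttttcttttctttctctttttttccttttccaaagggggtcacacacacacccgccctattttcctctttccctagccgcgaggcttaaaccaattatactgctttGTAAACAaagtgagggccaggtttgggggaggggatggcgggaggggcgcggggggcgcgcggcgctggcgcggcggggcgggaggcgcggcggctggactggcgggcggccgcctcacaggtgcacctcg
Dab2, chr15:6299539-6299778, plus strand: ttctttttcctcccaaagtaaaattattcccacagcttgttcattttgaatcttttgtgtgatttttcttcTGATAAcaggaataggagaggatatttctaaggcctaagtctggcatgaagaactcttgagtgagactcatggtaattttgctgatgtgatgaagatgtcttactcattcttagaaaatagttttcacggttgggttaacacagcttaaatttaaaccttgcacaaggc
The Foxa1 window holds 1 forkhead match and lies within the gene's interval in the table but in no annotated exon, and the Dab2 window holds 1 GATA match and lies before the gene. A second Dab2 window, chr15:6386498-6386737, holds 0 matches and is not printed. Windows of this kind were at hand for 6 of the 10 genes, and a forkhead match was found in 1 of them and a GATA match in 2, Dab2 and Hnf4a. Of 32851 promoter windows of 240 bases, 5.59% held a forkhead match and 16.2% a GATA match.

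Scaled by gene length, the order of the genes differed between the cell types. Levels here are CPM per kilobase of gene length. In ABSC, Dab2 (0.681 ± 0.100) and Amn (0.574 ± 0.290) came first and overlapped each other, and the lowest Amn library was above the highest of Sox7, the next gene. Below Amn no neighbours in the ABSC order were separate, and Sox17 came at place 9 with 0.0253 ± 0.0276, above Hnf4a at 0. In ALSC, Amn (1.19 ± 0.135) and Dab2 (1.01 ± 0.176) led, followed by Sox17 (0.706 ± 0.0859), Gata6 (0.568 ± 0.320) and Foxa1 (0.410 ± 0.196), which overlapped in turn, as did Gata4 after them. Pdgfra (mean 0.171) was apart from its neighbours on both sides. In AFSC, Amn (1.47 ± 0.480) lay above Dab2 (mean 0.921) without overlap, and Foxa1 (0.887 ± 0.372) came next, ahead of Sox17 (0.370 ± 0.213) and Gata6 (0.285 ± 0.132); these are means ± SD of 3 libraries. Among 22046 protein-coding genes, the members ranked between the 27.3 and the 55.3 percentile by group mean, Hnf4a in ABSC apart, which was at 0. The median of protein-coding genes with counts was 2.02 in ABSC, 2.20 in ALSC and 2.06 in AFSC on the same scale, so every member was below the median of genes with reads.

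**Figure D3:**
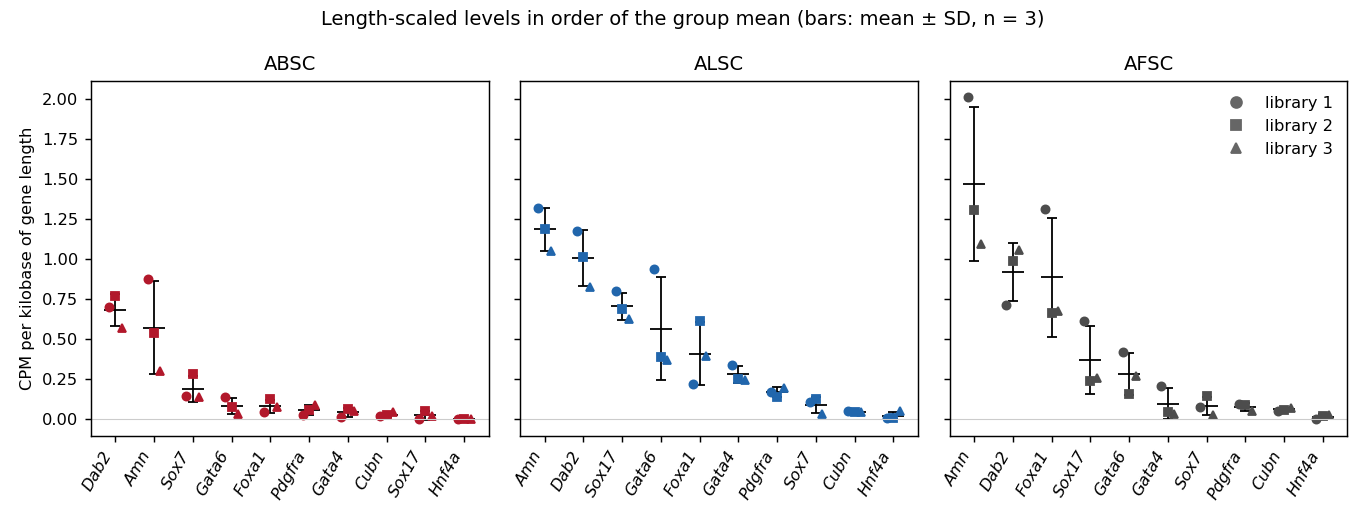
Length-scaled level (CPM per kilobase of gene length, linear axis shared by the panels) of the 10 genes in ABSC, ALSC and AFSC, in the order of the group mean. Symbols give the library number and bars mean ± SD (n = 3). Sox17 takes place 9 in ABSC, 3 in ALSC and 4 in AFSC, and Foxa1 takes place 5, 5 and 3.

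The genes fell into looser and tighter pairs across the 9 libraries, described here by Pearson's r of log2(CPM + 1), where all points share the libraries and their cell types. Sox17 followed Gata6 (r = 0.900) and Gata4 (r = 0.899), and Gata4 followed Pdgfra (r = 0.886). Foxa1 followed Amn (r = 0.801) and Cubn (r = 0.726) more closely than Gata6 (r = 0.432), Gata4 (r = 0.330) or Pdgfra (r = 0.245). Among about 13809 other genes at 1 CPM or more, those most like Sox17 were Anxa4 (r = 0.984), Mgst1 (r = 0.981) and Ndrg3 (r = 0.979). Those most like Gata6 were Jrk (r = 0.983), Helz2 (r = 0.979) and Akr1b8 (r = 0.978), and those most like Gata4 were Herc1, Trim13 and Slc31a1 (r = 0.967, 0.967 and 0.957). Pdgfra was most like Ackr3, Kdm5d and Efemp1 (r = 0.966, 0.955 and 0.947). Foxa1 was most like Tmem82, 9130008F23Rik and Twf2 (r = 0.964, 0.957 and 0.950). The genes nearest to Dab2 were Tmem38a, Igdcc4 and Azi2 (r = 0.954, 0.948 and 0.947), those nearest to Amn were Dact2, Pipox and Slc16a3 (r = 0.985, 0.972 and 0.972), and those nearest to Cubn were Rin2, Trps1 and Rlf (r = 0.970, 0.955 and 0.954). The highest of many correlations over 9 libraries are high by selection.

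The fall of Sox17 and Foxa1 in ABSC was accompanied by genes of the anterior visceral and definitive endoderm. Of 12 genes on that list, all tested, 9 were called lower in ABSC than in AFSC and 0 higher. Foxa2, Cer1 and Lhx1 stayed below the filter level of about 0.492 CPM in every ABSC library, and Dkk1 reached it in ABSC 3 alone. These genes needed ALSC or AFSC libraries to enter the test, so the counts of list genes lower in ABSC are given as description. Over all tested genes 4.0% were called lower and 3.98% higher. The median log2 fold change of the list was -1.90, against -0.00 for all genes. Otx2 is also on the epiblast marker list, and Eomes on the trophoblast marker list. Cer1, a secreted inhibitor of Nodal and BMP, held 0, 1 and 2 reads in the ABSC libraries, 258, 102 and 81 in ALSC and 130, 58 and 67 in AFSC. Its log2 fold change was -6.20 against AFSC (edgeR adjusted p = 0.00136) and -6.97 against ALSC (edgeR adjusted p = 0.000533). The ratio of AFSC over ABSC was 81.4 (95% counting interval 27.5 to 397), and that of ALSC over ABSC 144 (48.9 to 700). Foxa2, the forkhead relative of Foxa1 in node and endoderm, stood at 0.147, 0.418 and 0.354 CPM in ABSC, 20.4, 14.6 and 16.6 CPM in ALSC, and 16.8, 14.7 and 14.8 CPM in AFSC. Its log2 fold change was -5.64 against AFSC (SE 0.27, edgeR adjusted p = 4.19e-06) and -5.79 against ALSC (SE 0.27, edgeR adjusted p = 1.51e-06). Lhx1, a homeobox factor of the same tissues, was at -4.84 and -5.79, and Gsc, the goosecoid homeobox gene, at -3.38 and -4.40, all called in all 17 alternative settings. The fold changes of Cer1 were -7.05 against AFSC and -7.81 against ALSC without ABSC 3, and without ALSC 1 those against ALSC were -6.37 for Cer1 and -4.97 for Lhx1. Lefty1 (-3.02 against AFSC, -4.11 against ALSC), Dkk1 (-2.47, -3.80) and Mixl1 (-1.33, -1.95) were also lower in both ABSC comparisons. So were Trh (-0.55, -0.86) and Otx2 (-0.34, -0.35). Against AFSC, the Trh call was lost without ABSC 2, ABSC 3, AFSC 1, AFSC 2, AFSC 3 or the filter on low counts. The Otx2 call was lost there without ABSC 2, ABSC 3 or AFSC 3. The Dkk1 call was lost without ABSC 2 or AFSC 2, and the Mixl1 call without ABSC 3. Hhex, a homeobox factor of the anterior visceral endoderm, was at 8.32, 8.89 and 8.59 CPM in ABSC, ALSC and AFSC. The main edgeR fit called neither Hhex nor Cxcr4 nor Eomes in any comparison. Cxcr4, the receptor used to sort definitive endoderm, was at -1.72 in ABSC against ALSC (edgeR adjusted p = 0.0789), and was called lower there by DESeq2 (adjusted p = 0.0292) and with the replicate block (edgeR adjusted p = 0.00103). Leaving out 1 library gave 6 to 9 called genes for ABSC against AFSC, 6 without ABSC 2 and 6 without ABSC 3, and 9 to 10 for ABSC against ALSC.

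Between ALSC and AFSC, Gsc was the 1 gene of that list called by edgeR (1.02, SE 0.20, edgeR adjusted p = 0.0167), with 431, 286 and 372 reads in the ALSC libraries and 152, 202 and 194 reads in the AFSC libraries. The Gsc call was lost without ALSC 3 (0.98), AFSC 1 (0.94), AFSC 2 (1.07) or AFSC 3 (1.04), at edgeR adjusted p of 0.0557 to 0.0758. DESeq2 called 2 genes, Dkk1 (1.33, adjusted p = 0.0200) beside Gsc. With the replicate block 6 genes were called higher in ALSC, Cer1, Lhx1, Cxcr4, Dkk1 and Mixl1 beside Gsc, against 11.1% of all genes. Without the libraries numbered 1, 8 genes of the list were called, against 4122 of 16224 genes. The median of the list was 0.69, against 0.00 for all genes. ABSC against ALSC gave 9 genes lower and 0 higher, against 5.56% and 5.41% of all tested genes, with a median of -2.87. The filter limit stated for Foxa2, Cer1, Lhx1 and Dkk1 holds here too.

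**Figure D4:**
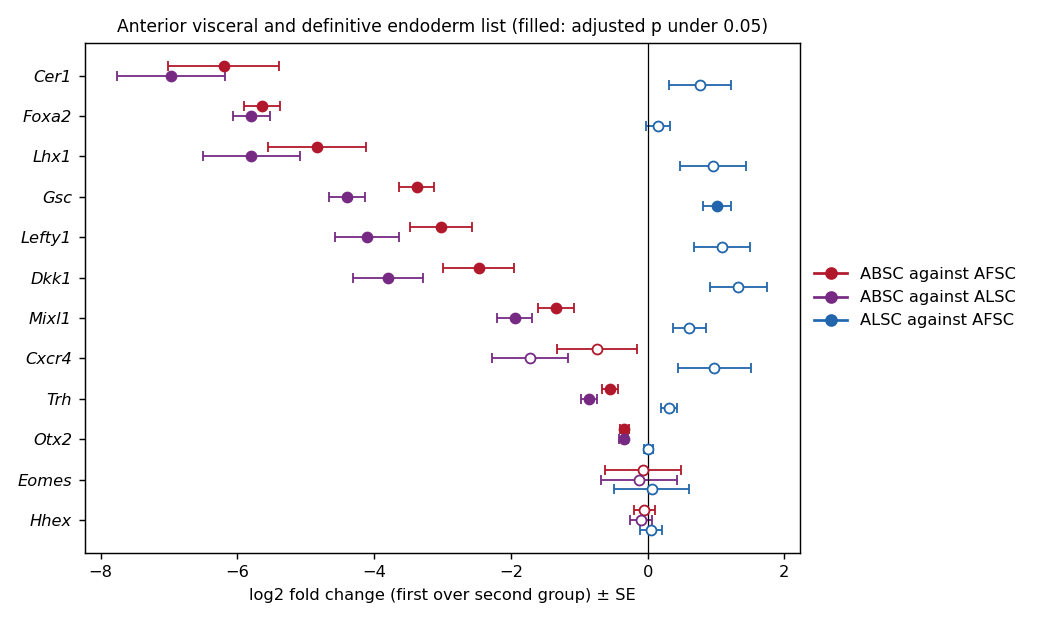
edgeR log2 fold changes of the 12 genes of the anterior visceral and definitive endoderm list, with SE as bars, for ABSC against AFSC, ABSC against ALSC and ALSC against AFSC. Filled points passed an adjusted p of 0.05. In both ABSC comparisons 9 genes are filled and left of 0, and Gsc is the 1 filled point of ALSC against AFSC.

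Most products of the mature visceral endoderm were too low to be tested. Of 16 listed genes, 3 passed the filter, Rbp4, Cited1 and Spink1. Rbp4, the retinol carrier gene, averaged 3.09, 2.68 and 2.24 CPM in ABSC, ALSC and AFSC, and Cited1, a transcriptional coactivator gene, 1.54, 1.76 and 1.99 CPM. By contrast, the transthyretin gene Ttr, the apolipoprotein genes Apoa4 and Apoc2, and Habp2 had 0 counts in all 9 libraries. Afp, the alpha-fetoprotein gene, had 3 reads over all libraries, all in ABSC. The whole list summed to 5.44 to 5.97 CPM in ABSC, 5.01 to 8.14 CPM in ALSC and 5.29 to 6.29 CPM in AFSC, ranges that overlapped. No gene of it was called against AFSC in either cell type by edgeR or DESeq2, with 1 gene lower in ABSC and 0 in ALSC at an unadjusted p under 0.05. Spink1, named here after its values were seen, was called lower in ABSC than in ALSC (edgeR adjusted p = 0.0330), with 1 read against 45, a ratio of ALSC over ABSC of 44.0 (95% counting interval 7.51 to 1777). The Spink1 call was lost without ABSC 1, ABSC 2, ABSC 3, ALSC 2, ALSC 3 or AFSC 3 (-6.96 to -4.43, edgeR adjusted p of 0.0558 to 0.113).

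The basement membrane genes that the parietal endoderm uses in quantity differed in both directions. The list of 15 genes, all tested, summed to 1246 to 1363 CPM in ABSC, 1317 to 1340 CPM in ALSC and 1272 to 1425 CPM in AFSC. Against AFSC, ABSC had 2 genes higher and 1 lower, with a median of -0.02, where 3.98% of all tested genes were called higher and 4.0% lower. Col4a2 (1.49, SE 0.13, edgeR adjusted p = 0.000110) and Col4a1 (0.77, SE 0.13, edgeR adjusted p = 0.00535), the type IV collagen chains, were higher. Plat, the tissue plasminogen activator gene, was lower (-1.73, SE 0.30, edgeR adjusted p = 0.00655). Pth1r, the parathyroid hormone receptor gene of the parietal endoderm, was higher in ALSC than in AFSC (1.30, SE 0.23, edgeR adjusted p = 0.0103), a call lost without AFSC 3 (1.13, edgeR adjusted p = 0.0577). It averaged 1.52 ± 0.197 CPM in ABSC, 3.80 ± 0.486 CPM in ALSC and 1.54 ± 0.324 CPM in AFSC (SD, n = 3), and was lower in ABSC than in ALSC (-1.32, SE 0.23, edgeR adjusted p = 0.00616). ABSC against ALSC gave 2 genes higher, again both collagen chains, and 2 lower, Pth1r and the laminin chain gene Lamb2 (-0.35). Over all tested genes 5.41% were higher and 5.56% lower there. The Lamb2 call was lost in 9 of 17 settings, among them the fits without ABSC 2, ABSC 3, ALSC 1, ALSC 2, AFSC 1, AFSC 2 or AFSC 3 (edgeR adjusted p of 0.0529 to 0.157). With the replicate block 3 genes of the list were higher and 4 lower in ABSC against AFSC, and 3 higher and 2 lower in ALSC against AFSC, and 2 higher and 5 lower in ABSC against ALSC. In the same order, that block called 9.58%, 11.1% and 14.2% of all tested genes higher and 9.78%, 11.1% and 14.3% lower.

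Relatives of the transcription factors moved in both directions. Of 12 listed partners, 6 were tested. Gata2, a GATA factor of trophoblast and blood, was higher in ABSC, at 1.90 ± 0.364 CPM, against 0.369 ± 0.239 CPM in ALSC and 0.710 ± 0.0807 CPM in AFSC (SD, n = 3). Its log2 fold change was 2.32 against ALSC (SE 0.40, edgeR adjusted p = 0.00496) and 1.41 against AFSC (SE 0.36, edgeR adjusted p = 0.0414), and the one against ALSC was 3.0 without ALSC 1. The Gata2 call against AFSC was lost without ABSC 2, ABSC 3, ALSC 2, AFSC 1, AFSC 2 or AFSC 3 (1.27 to 1.51, edgeR adjusted p of 0.0549 to 0.158). GATA genes thus differed in direction between ABSC and ALSC, with Gata2 higher and Gata4 and Gata6 lower in ABSC. Foxa3, another forkhead gene of the endoderm, was lower in ABSC than in ALSC (-1.53, SE 0.41, edgeR adjusted p = 0.0382), a call lost without ABSC 2, ABSC 3, ALSC 1, ALSC 2, ALSC 3, AFSC 2 or AFSC 3 (-1.65 to -1.25, edgeR adjusted p of 0.0526 to 0.140). Gata1, below 1 CPM in every group and named after its values were seen, was also called lower in ABSC than in ALSC (-1.70, edgeR adjusted p = 0.0235). The Gata1 call was lost without ABSC 1, ABSC 3, ALSC 1 or ALSC 3 (-1.71 to -1.48, edgeR adjusted p of 0.0560 to 0.0960), with both groups alone in the fit (edgeR adjusted p = 0.0551) and without the libraries numbered 1 (-1.32, edgeR adjusted p = 0.0672). Zfpm2, a cofactor of GATA4, was lower than in AFSC in ABSC (-2.08, edgeR adjusted p = 0.0390) and in ALSC (-3.02, edgeR adjusted p = 0.0145). Zfpm2 averaged 0.421 ± 0.124 CPM in ABSC, 0.222 ± 0.162 CPM in ALSC and 1.80 ± 0.850 CPM in AFSC (SD, n = 3). The ABSC call of Zfpm2 was lost without ABSC 1, ABSC 2, ABSC 3, ALSC 3, AFSC 2 or AFSC 3 (-2.33 to -1.82, edgeR adjusted p of 0.0615 to 0.159), and the ALSC call without ALSC 3, AFSC 2 or AFSC 3 (-3.15 to -2.76, edgeR adjusted p of 0.0516 to 0.0693).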

How the data were processed

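RNA-seq of 9 libraries was analysed, 3 for each of ABSC, ALSC and AFSC. The deposited table holds whole-number read counts per gene, which the authors made with HISAT2 2.0.5 and featureCounts 1.5.0-p3, per the submitters' processing notes. Those notes name build mm9, but 98.3% of the Ensembl IDs shared with the GENCODE M21 annotation have its GRCm38 coordinates in the table, so coordinates are given as GRCm38. Among the endoderm genes, the coordinates of Gata6 alone differ from that annotation. Per the labels' protocols the kit keeps no strand, so reads of overlapping genes cannot be told apart. The protocol text and the design text name different sequencers.

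The 346 entries without an Ensembl ID (0.208% to 0.227% of counts) were left out. The counts were fitted in R 4.3.3 with edgeR 4.0.16, with TMM scaling, its filter on low counts (about 0.492 CPM in 3 libraries, which left 16178 genes), a mean for each cell type and robust quasi-likelihood tests with Benjamini-Hochberg adjustment over all genes. SE is the log2 fold change over the square root of F. Alternatives were DESeq2 1.42.0, other scalings and filters, 2 groups alone, each library left out and the replicate number as a block, and, chosen after seeing the data, the libraries numbered 2 and 3 alone. Same-numbered libraries deviated together (correlations 0.286 to 0.648, all above 0.1). Pairs of different numbers reached up to 0.382, above some same-numbered pairs, and it is the libraries numbered 1 that stand apart. The main fit holds no block, because the labels do not explain the numbers, and the block is an alternative only. Nor do the labels say that replicates are separate cultures, so p-values measure the spread between these libraries, which may be technical. Intervals cover counting error only.

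The 10 members and all lists were chosen with earlier results of these data known: anterior visceral and definitive endoderm, visceral endoderm products, basement membrane, partners of the transcription factors, PDGF genes, cubilin partners, clathrin adaptors, and markers of epiblast, trophoblast, mesoderm and endothelium. From each list up to 4 called genes of at least 1 CPM were named by rule (those with the largest change), and so were the 3 genes most like each member; other list genes were named after their values were seen. In the cubilin list, 1 gene was not used here, as its name matched no entry. The shares of all tested genes given for each comparison and edgeR fit apply to the edgeR counts of list genes too.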

Additional observations from a re-analysis of the deposited data

Results flagged for a closer look

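For 4 genes, the log2 fold changes of ABSC and ALSC against AFSC had opposite signs, and the direct difference between ABSC and ALSC was called by edgeR. Sox17 differed by -4.76 on the log2 scale (ABSC against ALSC), with -3.82 for ABSC and 0.94 for ALSC against AFSC. Gata6 differed by -2.74, with -1.74 for ABSC and 1.01 for ALSC. Gata4 differed by -2.66, with -1.13 for ABSC and 1.53 for ALSC, and Pdgfra by -1.52, with -0.42 for ABSC, while ALSC was 2.15-fold above AFSC. The differences from AFSC share its 3 libraries, and of these 8 only that of Sox17 in ABSC was called. The signs of Gata4 and Pdgfra in ABSC against AFSC turn without the libraries numbered 1.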

How the results depend on the processing

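Over the 17 alternatives, 355 of 401 values of single endoderm genes kept their direction and side of the threshold, 19 lost and 21 gained a call, and 6 changed sign. For ABSC against AFSC, 4 endoderm genes were called with DESeq2, 4 with the replicate block and 5 with the libraries numbered 2 and 3 alone, in place of 2. For ALSC against AFSC, the replicate block gave 3 and the libraries numbered 2 and 3 alone gave 3, in place of 0, and leaving out 1 library gave 0 to 1, the 1 being without AFSC 1. For ABSC against ALSC, leaving out 1 library gave 2 to 5 in place of 5, and for the joint test over 3 groups 2 to 5. The values that changed sign belonged to no call. With the libraries numbered 2 and 3 alone, Dab2 was -0.16 in ALSC against AFSC, and Gata4 0.48 and Pdgfra 0.081 in ABSC against AFSC. With 1 library left out, Dab2 ran from -0.028 (without AFSC 1) to 0.25 and Gata4 from -1.55 to 0.039 (without AFSC 1) in the same comparisons, Dab2 also reaching -0.0029 without ALSC 1. Over all genes, the block moved the calls to 3132, 3590 and 4605 for ABSC against AFSC, ALSC against AFSC and ABSC against ALSC, in place of 1291, 1139 and 1775, DESeq2 to 1657, 1614 and 2223, and the libraries numbered 2 and 3 alone to 4622, 4122 and 5225. The cause was not tested. A filter of 1 CPM left 6 of the 8 genes. Most of the 10 genes held under 100 reads a library, which limits what differences could be detected.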

Other observations

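Among the partners of cubilin and amnionless, further genes than Lrp2 were higher in ABSC. Of 12 tested genes of that list, 3 were called higher in ABSC than in AFSC and 0 lower by edgeR, against 3.98% and 4.0% of all tested genes. Beside Lrp2 these were Lrpap1, the chaperone of LDL receptor family proteins (0.76, SE 0.17, edgeR adjusted p = 0.0207), and Gipc1, an adaptor that binds the tail of megalin (0.41, SE 0.10, edgeR adjusted p = 0.0270). Lrpap1 averaged 172 ± 40.8 CPM in ABSC, 125 ± 14.3 CPM in ALSC and 101 ± 12.2 CPM in AFSC (SD, n = 3). Its call was lost without ABSC 2, ABSC 3, AFSC 1, AFSC 2 or AFSC 3 and without the filter on low counts. Gipc1 was the 1 gene of the list called in ALSC against AFSC (0.38, edgeR adjusted p = 0.0403), and was lost without ABSC 2, ABSC 3, ALSC 1, ALSC 2, ALSC 3, AFSC 2 or AFSC 3. Its ABSC call was lost without ABSC 1, ABSC 2, AFSC 2 or AFSC 3 and with library size as the only scaling. Against ALSC, Lrp2 was the 1 gene called in ABSC by edgeR, while DESeq2 also called Myo6, a motor protein gene of endocytosis, lower (adjusted p = 0.0254, against an edgeR adjusted p of 0.0684). With the replicate block 4 genes were called higher and 1 lower in each of the 3 comparisons. The block called 9.58% to 14.2% of all tested genes higher and 9.78% to 14.3% lower.

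The clathrin adaptors beside Dab2 showed few and small differences. Of 16 genes, all tested, Picalm, an adaptor that drives clathrin assembly, was higher in ABSC than in AFSC (0.23, edgeR adjusted p = 0.0163) and than in ALSC (0.23, edgeR adjusted p = 0.0145), and Clta, a clathrin light chain gene, was higher in ABSC than in ALSC (0.31, edgeR adjusted p = 0.00836). The Picalm calls were lost without ABSC 3, that against AFSC also without AFSC 2 or AFSC 3 and without the filter on low counts (edgeR adjusted p = 0.0551), and that against ALSC also with library size as the only scaling (edgeR adjusted p = 0.0728) and with both groups alone in the fit (edgeR adjusted p = 0.0607). For ALSC against AFSC no gene was called by edgeR or DESeq2, with 0 higher and 3 lower at an unadjusted p under 0.05, and with the block 1 higher and 3 lower. The list summed to 2361 to 2490 CPM in ABSC, 2245 to 2311 CPM in ALSC and 2271 to 2312 CPM in AFSC.

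Some endoderm genes overlap other transcripts, whose reads cannot be told apart from theirs. The overlapping entries held 0 to 2 reads a library at Sox17, 0 to 5 at Gata6, 1 to 6 at Cubn and 0 to 1 at Hnf4a.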
